A study of Mus musculus with 6 samples.

Results

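The immediate early genes of the EGR and IER families and the feedback inhibitors of mitogen-activated protein kinase (MAPK) signaling were followed in mouse hepatocytes that received the transcription factor Sox4. The 10 genes were taken by symbol from the deposited count table of 53599 genes: Egr1, Ier2, Ier3, Ier5, Dusp1, Dusp4, Dusp5, Dusp6, Spry2 and Spry4. No measured value entered the choice rule, but the genes were proposed with results of these data in view, so their counts below are descriptive. Bulk RNA-Seq was performed on hepatocytes from 3 mice per group, 4 days after injection of a serotype 8 adeno-associated virus (AAV8). Empty vector (EV) mice received AAV8-TBG-Cre, and Sox4 mice received AAV8-TBG-HA-Sox4-P2A-Cre, in which HA-tagged mouse Sox4 and Cre recombinase are made from the same transcript. All animals therefore carried Cre in their hepatocytes. They were C57BL/6J mice with a Cre-inducible Cas9-EGFP allele, as described in the methods. The TBG promoter limits the transgene to hepatocytes, so a change in any other cell type of the preparation would be indirect. Livers were digested with liberase and hepatocytes were enriched on Percoll, a density medium, without sorting.

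Growth factors and many stresses activate receptor kinases and RAS, which switch on a relay of kinases ending in ERK. ERK phosphorylates transcription factors that induce immediate early genes such as Egr1 within minutes, without new protein synthesis. The same signal induces its own brakes: dual-specificity phosphatases (DUSPs), which remove phosphate from MAPKs, and Sprouty and Spred proteins, which act between the receptor and RAF. In liver these genes are known to respond to partial hepatectomy, to injury and to the isolation of cells itself. All 6 libraries came from digested livers, so the levels include whatever digestion did to these genes, and its part in the results was not tested.

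The promoters of Dusp5, Dusp6 and Dusp1 are shown because these phosphatases had an entry in the promoter table used, whereas Dusp4 had none. The RefSeq promoter table (assembly GRCm38.p6) held 6 of the 10 genes, namely Dusp1, Dusp5, Dusp6, Ier3, Ier5 and Spry2. The 250 bases before the transcription start are given 5' to 3' on the gene's strand for the phosphatase with the largest fold change (Dusp5, chr19:53528895-53529144, plus strand), for the ERK-selective phosphatase that is best expressed (Dusp6, chr10:99262981-99263230, plus strand) and for the phosphatase whose groups overlapped (Dusp1, chr17:26508473-26508722, minus strand). Capitals mark matches to the CArG box, which serum response factor (SRF) binds, or to TGACGTCA, the full cyclic AMP response element that CREB and ATF proteins bind.
Dusp5: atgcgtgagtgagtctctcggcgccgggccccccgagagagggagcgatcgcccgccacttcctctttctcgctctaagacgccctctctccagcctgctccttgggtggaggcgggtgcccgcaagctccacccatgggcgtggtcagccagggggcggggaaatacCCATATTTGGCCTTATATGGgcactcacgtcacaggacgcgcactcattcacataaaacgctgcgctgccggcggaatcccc
Dusp6: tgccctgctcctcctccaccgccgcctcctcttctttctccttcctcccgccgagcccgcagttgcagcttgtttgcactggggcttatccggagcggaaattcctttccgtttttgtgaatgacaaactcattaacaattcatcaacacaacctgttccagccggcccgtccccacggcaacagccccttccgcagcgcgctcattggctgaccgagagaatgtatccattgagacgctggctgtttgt
Dusp1: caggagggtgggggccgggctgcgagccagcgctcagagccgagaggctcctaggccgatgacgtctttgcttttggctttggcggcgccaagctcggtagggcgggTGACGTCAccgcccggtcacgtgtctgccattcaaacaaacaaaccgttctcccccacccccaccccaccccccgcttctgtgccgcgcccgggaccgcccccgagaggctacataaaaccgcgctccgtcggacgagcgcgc
Dusp5 held 2 adjoining CArG boxes, beginning 82 and 72 bases before the start, and Dusp1 held 1 TGACGTCA beginning 143 bases before it. Both strands of windows running from 250 bases before to 50 bases after the start were searched. Of 32851 such windows in the table, 1.63% held a CArG box and 1.79% held TGACGTCA. The other letters searched were TGANTCA for AP-1 (7.81% of windows), CCGGAA for ETS factors (14.9%), GTGGGCG for EGR proteins (7.97%) and AACAANG for SOX proteins (14.1%). Spry2 held 1 CCGGAA, 33 bases after its start, and no other match was found in the 6 windows. A match is a description of the letters and not a measured binding site.

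Library totals were 15090629 to 16964860 counts, and 17025 to 17525 genes had a count in EV against 19049 to 19515 in Sox4. Sox4 itself, which includes the vector transcript, had 2, 0 and 3 counts in EV 1, 2 and 3 and 21697, 15097 and 11816 in Sox4 1, 2 and 3. Levels are given as counts scaled to a common library size of 1e+06 (CPM) on library sizes scaled by the trimmed mean of M-values (TMM), which made Sox4 library sizes 1.48 times those of EV where the totals differed by 1.07 times. This matters for every value below. The median log2 fold change of all 12691 genes tested was 0.04 with TMM and 0.51 with totals alone, and 52.7% of calls were higher in Sox4 with TMM against 79.9% with totals alone. Hepatocyte markers were far above those of other liver cells in each library, with a summed level of 105352 to 129281 CPM across EV libraries and 75897 to 88534 CPM across Sox4 libraries, and 5 of the 7 measured fell (3 with totals alone, where 2 lay above 0). The cholangiocyte markers Krt7 and Krt19 were at 0 in every EV library.

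Of the 10 genes, 9 passed the filter on low counts and 6 were higher in Sox4 hepatocytes: Egr1, Ier3, Dusp4, Dusp5, Dusp6 and Spry4. None was lower, and Ier2, Ier5 and Dusp1 did not pass the threshold, an adjusted p under 0.05 in edgeR's quasi-likelihood test. Among all genes tested, 55.1% passed in either direction and 29.0% passed as higher. Of the 9, 4 were higher at least 2-fold (Ier3, Dusp4, Dusp5 and Dusp6), against 16.5% of all genes tested. In 6 of the 9, the same 6 that passed, every Sox4 library lay above every EV library, and 33.1% of all genes tested had this pattern. Ier3 and Dusp5 passed the filter only through the Sox4 libraries, where their counts were high, so they had to differ to be tested at all. Their calls are a description and their p-values are not given, and of the other 7 genes 4 were higher. Spry2 was too low to test.

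**Figure D1:**
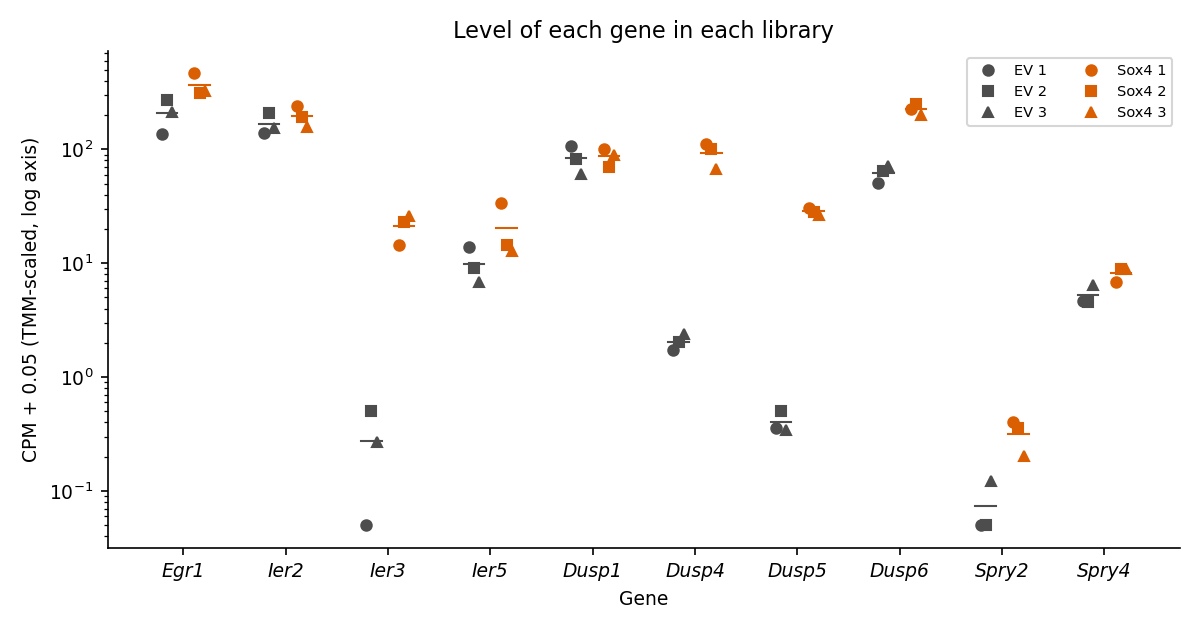
Level of each of the 10 genes in each library, in CPM on TMM-scaled library sizes (log axis, CPM + 0.05), with EV in grey, Sox4 in orange, a marker shape for each replicate and a line at each group mean. Ier3, Dusp4 and Dusp5 reach at most 2.32 CPM in EV and lie between 14.3 and 110 CPM in Sox4, whereas the Ier2 and Dusp1 points of both groups overlap.

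Egr1, a zinc finger transcription factor and one of the fastest genes to respond to ERK, was already abundant in EV and rose in Sox4. Its level was 137, 271 and 212 CPM in EV 1, 2 and 3 and 465, 313 and 323 CPM in Sox4 1, 2 and 3. The lowest Sox4 library lay above the highest EV library, and Sox4 1 was the highest of all. The mean rose from 207 ± 66.9 to 367 ± 84.6 CPM (SD, n = 3), a log2 fold change of 0.83 with a standard error (SE) of 0.34, a 95% interval of 0.25 to 1.40 and an adjusted p of 0.0215. The call rested on single libraries: without EV 3 the log2 fold change was 0.83 with an adjusted p of 0.0561, and without Sox4 1 it was 0.62 with an adjusted p of 0.081. With the replicate number as a block it was 0.85 with an adjusted p of 0.0879.

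Ier2, which encodes a small nuclear protein, had the highest mean level per kilobase of the 10 genes in both groups. It measured 139, 209 and 155 CPM in EV and 241, 192 and 156 CPM in Sox4, and the groups overlapped. Its log2 fold change was 0.23 (SE 0.25, 95% interval -0.21 to 0.67, adjusted p = 0.343), so a rise of more than 0.67 lay outside the interval. With totals alone it was 0.70 with an adjusted p of 0.0104, where the median of all genes was 0.51. Within a library, where no scaling enters, the count of Ier2 per count of Egr1 was 0.729 to 1.01 in EV and 0.482 to 0.614 in Sox4, and the groups did not overlap.

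Ier3, a short-lived protein known to modulate cell survival and ERK signaling, went from nearly no reads to a clear level. Its counts were 0, 6 and 3 in EV and 286, 452 and 512 in Sox4. In CPM the mean went from 0.224 ± 0.228 to 21.1 ± 6.04 (SD, n = 3), and all Sox4 libraries were far above all EV libraries. Ier3 had a log2 change of 6.50 (SE 0.71), and over the alternatives it ran from 5.94 without EV 1 to 7.46 without EV 2. With only 9 counts in EV, the ratio of summed counts scaled by library size was 93.6, with an interval of 49.1 to 205 that covers counting error only.

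Ier5, a regulator of heat shock factor signaling related to Ier2, was uneven among the libraries. It measured 13.8, 8.95 and 6.74 CPM in EV and 33.9, 14.4 and 12.8 CPM in Sox4. Sox4 1 was the highest of all libraries, and Sox4 3 lay below EV 1. For Ier5 the log2 fold change was 1.05 (SE 0.53, 95% interval 0.01 to 2.10) with an adjusted p of 0.0813. Without Sox4 1 it was 0.47, without Sox4 3 it was 1.30 with an adjusted p of 0.037, with totals alone 1.52 (0.0207), by DESeq2's Wald test 1.05 (0.0108) and with the replicate block 0.98 (0.000642).

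Of the 4 phosphatases, Dusp4, Dusp5 and Dusp6 rose and Dusp1 did not pass the threshold. Dusp1, a nuclear phosphatase that acts on p38 and JNK as well as ERK, measured 107, 81.8 and 61.2 CPM in EV and 102, 70.3 and 88.2 CPM in Sox4. The libraries of both groups spanned nearly the same range. Its log2 fold change was 0.06 (SE 0.28, 95% interval -0.42 to 0.53, adjusted p = 0.837). Its sign turned without EV 3 (-0.14) and without Sox4 1 (-0.08). In the mouse annotation GENCODE M21 its exons share 11 bases with Ergic1 on the opposite strand.

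Dusp4, a nuclear phosphatase of ERK and JNK, had 22, 26 and 32 counts in EV and 2204, 1960 and 1313 in Sox4. Its level was 1.69, 1.97 and 2.32 CPM across EV libraries and 66.4 to 110 CPM across Sox4 libraries. Each group was tight relative to the gap between them, with Sox4 3 the lowest of the Sox4 libraries. The log2 fold change was 5.52 (SE 0.26, 95% interval 4.98 to 6.07, adjusted p = 4.11e-07), a 46.0-fold difference, and it ran from 5.37 to 5.99 over the alternatives.

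Dusp5, a nuclear phosphatase selective for ERK whose promoter with 2 CArG boxes is given above, had 4, 6 and 4 counts in EV and 611, 552 and 523 in Sox4. The mean went from 0.351 ± 0.0905 to 28.4 ± 2.07 CPM (SD, n = 3), and the Sox4 libraries all lay between 26.5 and 30.6 CPM. Dusp5 was 6.31 log2 units higher (SE 0.16), and the counting-error ratio was 81.1 (48.2 to 149). In GENCODE M21, 22.1% of its exon bases lie under AC137853.2 on the opposite strand, which the count table did not list, so reads from that stretch could not be assigned by strand here.

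Dusp6, the cytoplasmic phosphatase of ERK and the usual marker of ERK output, was well expressed in EV and rose further. It measured 50.6, 64.6 and 71.1 CPM in EV and 228, 248 and 199.8 CPM in Sox4. The groups were far apart and each was narrow. The log2 fold change was 1.86 (SE 0.17, 95% interval 1.51 to 2.20, adjusted p = 9.75e-06), or 3.63-fold, and it passed in all 12 alternatives, from 1.71 to 2.33.

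**Figure D2:**
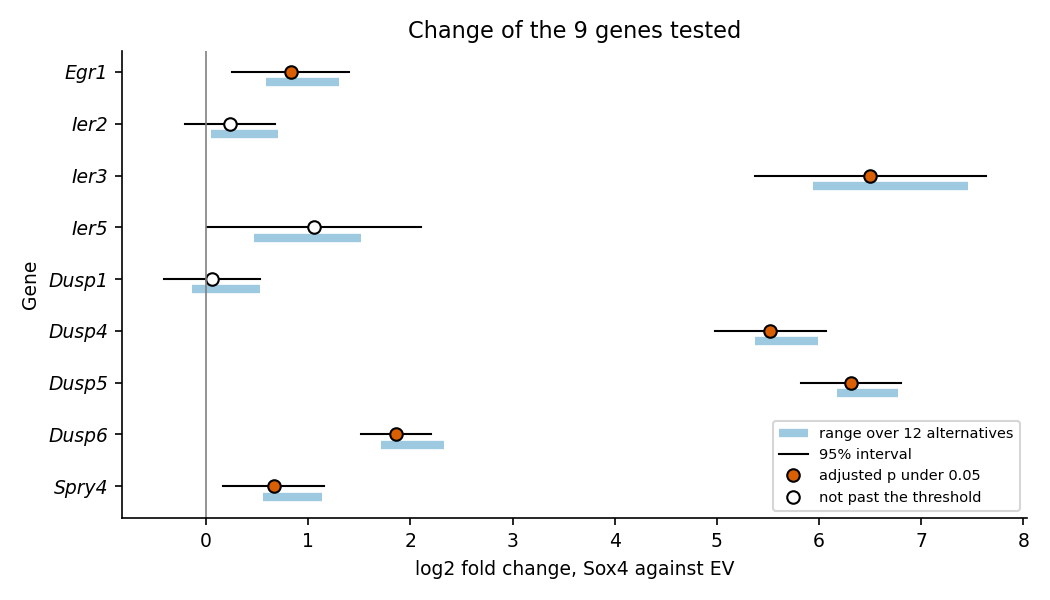
Log2 fold change of the 9 tested genes, Sox4 minus EV, with the 95% interval from the quasi-likelihood fit as a thin line and the range over the 12 alternatives as a blue bar. Filled points passed the threshold and open points did not. Ier3, Dusp5 and Dusp4 lie between 5.52 and 6.50, Dusp6 at 1.86, and the intervals of Ier2 and Dusp1 cross 0.

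The makeup of the 4 phosphatases was compared on a scale that library size cannot move, as each gene's share of their summed counts per kilobase of exon. Dusp1 made up 54.3 ± 11.0% in EV and 18.4 ± 3.62% in Sox4 (SD, n = 3). Dusp4 went from 1.61 ± 0.38% to 23.2 ± 3.43% and Dusp5 from 0.310 ± 0.0775% to 8.05 ± 0.44%. Dusp6 held 43.7 ± 10.6% in EV and 50.3 ± 3.40% in Sox4, with overlapping libraries. In raw counts, Dusp4 per Dusp1 was 0.0158 to 0.0379 in EV and 0.753 to 1.42 in Sox4. Shares show unequal change among the genes and not that any of them was constant.

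**Figure D3:**
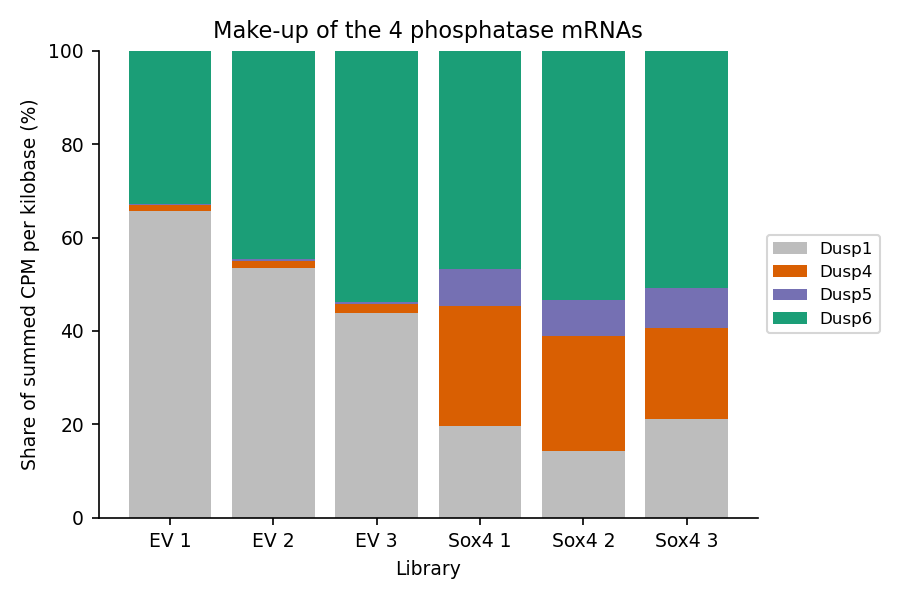
Share of Dusp1, Dusp4, Dusp5 and Dusp6 in their summed counts per kilobase, in percent, as stacked bars for each library. Dusp1 and Dusp6 filled nearly the whole of each EV library, and Dusp4 and Dusp5 took 23.2% and 8.05% on average in Sox4.

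Spry4, an inhibitor of RAS activation downstream of growth factor receptors, measured 4.62, 4.47 and 6.38 CPM in EV and 6.81, 8.93 and 8.81 CPM in Sox4. The groups did not overlap, but EV 3 and Sox4 1 were close. The log2 fold change was 0.66 (SE 0.20, 95% interval 0.17 to 1.16, adjusted p = 0.0276). The call was lost without EV 1 (0.57), EV 2 (0.56), Sox4 2 (0.60) or Sox4 3 (0.61), with adjusted p up to 0.108.

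Spry2, which acts at the same step, had 0, 0 and 1 counts in EV and 7, 6 and 3 in Sox4. All EV libraries were under the floor of 3 counts, and Sox4 3 was at it. The scaled ratio of summed counts was 10.8 with a counting interval of 1.67 to 452. With no filter the log2 fold change was 3.13 with an adjusted p of 0.09, so a difference in Spry2 was not shown at this depth.

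Per kilobase of exon (GENCODE M21 lengths), the order of the mean levels in EV was Ier2 (110 CPM per kilobase), Egr1 (46.1), Dusp1 (25.2), Dusp6 (19.8), Ier5 (2.998), Spry4 (1.08), Dusp4 (0.728), Ier3 (0.198), Dusp5 (0.142) and Spry2 (0.0116). Neighbors whose libraries overlapped in EV were Egr1 and Dusp1, Dusp1 and Dusp6, and Ier3 and Dusp5. In Sox4 the order was Ier2 (129), Egr1 (81.9), Dusp6 (71.9), Dusp4 (33.7), Dusp1 (26.2), Ier3 (18.7), Dusp5 (11.5), Ier5 (6.22), Spry4 (1.72) and Spry2 (0.129). There Ier2 overlapped Egr1, Egr1 overlapped Dusp6, Dusp4 overlapped Dusp1, and Dusp1 overlapped Ier3. Dusp4, Ier3 and Dusp5 stood below Ier5 and Spry4 in EV and above both in Sox4.

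Library Sox4 1 had the highest level among the Sox4 libraries for Egr1, Ier2, Ier5, Dusp1, Dusp4, Dusp5 and Spry2, and the lowest for Ier3 and Spry4. It also had the lowest share of mitochondrial mRNA, 4.36% of counts against 6.99% and 7.44% in the other Sox4 libraries and 5.32% to 5.86% in EV. EV 1 was the lowest EV library for Egr1, Ier2, Ier3, Dusp4 and Dusp6, and the highest for Ier5 and Dusp1.

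The relatives of the EGR and IER genes were read from a list of 6, of which 5 were tested and 3 rose. Egr2, Egr3 and Ier5l passed the filter only through the Sox4 libraries, so their calls are a description and no p is given. Egr2 had 1, 31 and 4 counts in EV and 612, 421 and 287 in Sox4, and its mean went from 0.906 ± 1.26 to 22.2 ± 8.08 CPM (SD, n = 3). The difference was 4.61 on the log2 scale (SE 1.13), and 6.83 without EV 2, which held most of the EV counts. Egr3 had no count in EV and 21, 16 and 13 counts in Sox4, at least 3.74-fold above a floor of 3 counts per library. Ier5l had 0, 2 and 0 counts in EV and 156, 105 and 107 in Sox4, at least 27.5-fold above that floor. Nab1 and Nab2, which bind EGR proteins and repress their activity, had log2 fold changes of -0.11 and -0.20 (adjusted p = 0.497 and 0.584), and both lay above 0 with totals alone. Egr4 had no count in any library. The median of the 5 was the value of Egr2 itself, 4.61 (6.83 without EV 2), and 1.90 with the genes at the EV floor set to their bounds. As 3 of the 5 were tested only through their Sox4 counts, this median is a description. It cannot be set against the 0.04 of all genes tested.

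Among the 6 other MAPK phosphatases, 5 were tested and Dusp9 alone passed, a gene tested only through its Sox4 counts, with 0, 0 and 3 counts in EV and 38, 22 and 17 in Sox4, at least 5.75-fold above the floor. Dusp7, at 1.33 CPM in EV, had a log2 fold change of 0.91 and did not pass. With 25, 9 and 19 counts in EV it too needed its Sox4 counts to pass the filter, so its values are a description. Dusp8, at 2.85 CPM in EV, had a log2 fold change of 0.84 (adjusted p = 0.0552), and Dusp10 and Dusp16 of 0.25 and 0.24 (0.513 and 0.223). Dusp2 was too low to test. The list's count moved with the setting: 4 of 5 were higher with totals alone, and 2 without EV 1 (Dusp7 1.25), without EV 2 (Dusp8 1.11), without Sox4 1 (Dusp8 0.97) or with the replicate block. The median of the 5 was 0.84.

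The other Sprouty and Spred genes that were tested, 3 of the 5 listed, all rose. Spry1 had 6, 2 and 9 counts in EV and 265, 372 and 327 in Sox4, so it passed the filter only through Sox4 and its call is a description. Its mean went from 0.422 ± 0.253 to 16.3 ± 2.87 CPM (SD, n = 3), or 5.23 on the log2 scale (SE 0.47). Spred1 and Spred2, membrane proteins that bring the RAS inhibitor neurofibromin to RAS, had log2 fold changes of 1.09 and 0.73 (adjusted p = 0.000727 and 0.00513). Spred3 was too low to test. The count table held 4 of the 5 listed genes under their symbols, and Spry3 was not analysed here.

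Of 10 feedback inhibitors of receptor and RAS signaling outside these families, 7 rose, 1 fell and 2 did not pass. Il17rd, a membrane inhibitor of FGF signaling, had 1, 6 and 0 counts in EV and 168, 294 and 155 in Sox4, and it too passed the filter only through Sox4. Its mean went from 0.177 ± 0.244 to 10.4 ± 3.98 CPM (SD, n = 3), or 5.83 on the log2 scale (SE 0.73), and the value was 7.86 without EV 2 and 5.23 without EV 3. Rasal2, a RAS GTPase-activating protein, rose by 2.18 on the log2 scale, and the receptor ubiquitin ligases Cblb and Cbl by 1.90 and 1.11. The gene that fell was Lrig1 (-0.39, adjusted p = 0.036), named after its value was seen, and no listed gene was lower without EV 1, EV 2, Sox4 2 or Sox4 3 or with totals alone. The median of the list was 0.64.

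The list of ERK transcriptional targets and effectors held 12 genes, of which 8 were tested and 6 rose. Among all genes tested, 29.0% passed as higher. The cytokine Lif rose by 3.70, the cyclin Ccnd1 by 3.22, the transcription factor Myc by 3.02 and the receptor Epha2 by 1.41 on the log2 scale, with adjusted p from 2.03e-05 to 0.00241 for Ccnd1, Myc and Epha2. Etv5 and Phlda1, the tested genes that did not pass, had log2 fold changes of 0.04 and -0.26 (adjusted p = 0.887 and 0.648). Lif (8, 14 and 13 counts in EV), Etv4 (0, 0 and 2) and Plaur (0, 2 and 0) needed their Sox4 counts to pass the filter. Their calls are therefore a description. The median, which includes Lif, Etv4 and Plaur, was 3.12, or 2.42 with genes at the EV floor set to their bounds.

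Of 19 other immediate early genes, all tested, 15 rose and 4 did not pass, with a median log2 fold change of 2.29 (13 rose and 1 fell without Sox4 1). The stress-inducible Gadd45b rose by 4.94, the kinase Sgk1 by 4.57, the transcription factor Atf3 by 3.87 and the nuclear receptor Nr4a1 by 3.51 on the log2 scale. Gadd45b, with 17, 8 and 13 counts in EV, also needed its Sox4 counts to pass the filter. So did Nr4a2, which is among the 15 that rose and had 1, 4 and 2 counts in EV. The 6 AP-1 genes, which encode FOS and JUN proteins, gave 3 higher and 3 not past: Fosb rose by 4.47, Fosl2 by 1.97 and Fos by 1.58, and the median was 1.05. Fos measured 103 ± 43.3 CPM in EV and 307 ± 78.3 CPM in Sox4 (SD, n = 3). With totals alone 5 of the 6 were higher.

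Genes of the kinase cascades upstream of the 10 genes went in both directions. Of 18 genes tested from RAS to ERK, 4 rose, 5 fell and 9 did not pass, with a median of 0.06. Among all genes tested, 55.1% passed in either direction and 29.0% as higher, with a median of 0.04, so this list lay near all genes. Nras rose by 1.55 and Mapk3, which encodes ERK1, by 1.36, and Araf fell by 0.90 on the log2 scale. With totals alone 10 were higher and 1 lower, so the direction of this list depends on the scaling, and without EV 2 or without Sox4 2 the lower genes numbered 3. Of 10 stress kinase genes tested, 1 rose (Mapk8, encoding JNK1, by 1.11) and 2 fell (Map2k3 by 1.03 and Mapk14, encoding p38 alpha, by 0.64), with a median of -0.02, and with totals alone 7 were higher and 1 lower. Without EV 3 or without Sox4 1, 2 stress kinase genes were higher.

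SRF, which binds the CArG box, and its partner proteins gave 3 higher of 6 with a median of 0.53, and 5 higher with totals alone. Mrtfb rose by 0.61 (adjusted p = 0.00369). Srf, at 0.70 (0.0323), did not pass without EV 1 (0.76), EV 2 (0.78), EV 3 (0.53) or Sox4 1 (0.40), and Mrtfa, at 0.55 (0.0133), did not pass without EV 2 (0.53) or Sox4 2 (0.42). The list held 1 higher gene without EV 2 and 2 without EV 1, EV 3, Sox4 1 or Sox4 2.

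**Figure D4:**
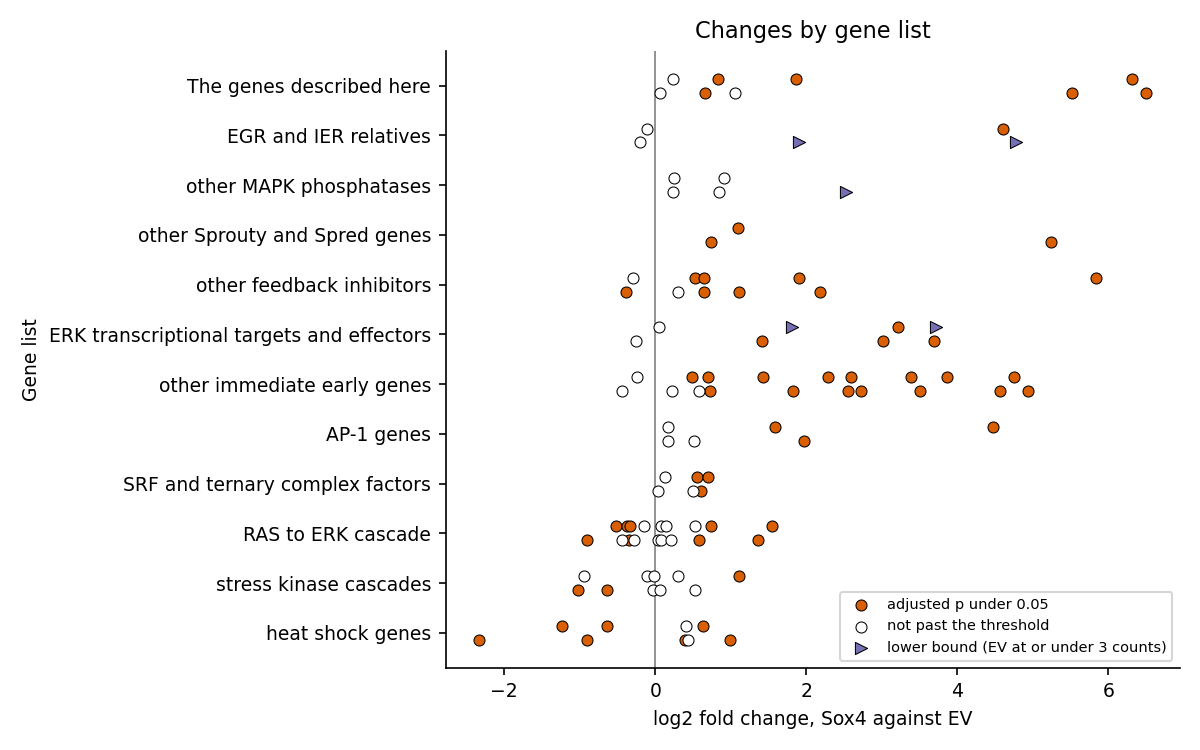
Log2 fold change of every tested gene of each list, Sox4 minus EV, with triangles for genes at or under 3 counts in every EV library, drawn at their lower bound, filled circles for other genes past the threshold and open circles for the rest. The other immediate early genes lie mostly above 0 with a median of 2.29, and the RAS to ERK genes spread around 0 with a median of 0.06.

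Genes that can follow the state of the preparation are given here for comparison with the 10 genes. Whether the preparation differed between the groups, and its part in the results, was not tested. Heat shock genes, followed because tissue digestion is known to induce them, summed to 1885 to 2372 CPM across EV libraries and 2387 to 2573 CPM across Sox4 libraries. Of 9 tested, 3 rose and 4 fell (5 and 2 with totals alone), among them Hsp90aa1 with a rise of 0.99 and Hspa1b, Hspb1 and Hspd1, which fell by 2.33, 1.24 and 0.91 on the log2 scale. None of the 13 mitochondrial mRNAs passed edgeR's test, with 0 at an unadjusted p under 0.05, and 1 was lower by DESeq2's Wald test. With totals alone 2 were higher, without Sox4 1 there was 1 higher, and without Sox4 2 or without Sox4 3 there was 1 lower.

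Markers of other liver cells were low beside hepatocyte markers but several were higher in Sox4. In bulk RNA, fewer cells of a type and less RNA per cell cannot be told apart. Cholangiocyte markers summed to 27.7 to 43.8 CPM across EV libraries and 71.9 to 84.8 CPM across Sox4 libraries, with 2 of 4 tested higher. Kupffer cell and macrophage markers summed to 9.85 to 23.6 CPM across EV libraries and 23.7 to 59.6 CPM across Sox4 libraries, with 3 of 7 higher (8 of 8 without Sox4 1, and 2 of 8 without EV 2). The stellate cell and fibroblast sum was 8.54 to 44.7 CPM across EV libraries and 79.0 to 139 CPM across Sox4 libraries, most of it Reln, which averaged 22.4 and 98.0 CPM, and 2 of 3 tested were higher (none without Sox4 2 and 1 without Sox4 3, but 4 of 7 without EV 1 and 6 of 7 without EV 3 or without Sox4 1). Endothelial markers summed to 17.5 to 29.8 CPM across EV libraries and 15.7 to 39.1 CPM across Sox4 libraries, with 2 higher and 1 lower of 8 (none higher without EV 1, Sox4 2 or Sox4 3, 1 higher without EV 2 or EV 3, and none lower without EV 2, EV 3, Sox4 1 or Sox4 2). Leukocyte markers summed to 0.770 to 2.43 CPM across EV libraries and 1.502 to 4.49 CPM across Sox4 libraries, the 1 tested, Ptprc, did not pass, and Ly6g had no count. Of the markers called higher, Epcam, Marco, Cd68 and Col3a1 needed their Sox4 counts to pass the filter, so their calls are a description. Their EV counts were 1, 0 and 5 for Epcam, 4, 15 and 14 for Marco, 7, 12 and 6 for Cd68 and 1, 19 and 20 for Col3a1. Sox4 1 had the lowest Kupffer cell sum (23.7 CPM) and the lowest endothelial sum (15.7 CPM) of the Sox4 libraries. The stellate sum followed Reln, at 126, 117 and 50.8 CPM in Sox4 1, 2 and 3, and not the other stellate markers. Dcn (3.55, 12.4 and 17.0 CPM) and Col3a1 (1.75, 4.74 and 4.96 CPM) were lowest in Sox4 1. So were Lrat, Col1a1, Pdgfra and Pdgfrb at low counts, and Des was lowest in Sox4 2. Among the 10 genes, Ier3 and Spry4 were also lowest in Sox4 1, Egr1, Ier2, Ier5, Dusp1, Dusp4, Dusp5 and Spry2 were highest in it, and Dusp6 lay in between.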

How the data were processed

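Bulk RNA-Seq was analysed from hepatocytes of 3 EV and 3 Sox4 mice, grouped by their labels. The authors deposited raw counts per gene. Per the submitters' processing notes, reads were aligned to GRCm39 with STAR 2.7.10b and counted with featureCounts 2.0.1, and DESeq2 was also listed. The annotation release, strand setting and treatment of reads mapping to several places are not given in the sources used here, so overlapping genes are uncertain. A second deposited table of the same counts divided by size factors was not used.

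Genes were filtered with filterByExpr (minimum count 10, total 15), scaled by TMM and fitted with edgeR 4.0.16 (R 4.3.3, limma 3.58.1) by robust quasi-likelihood, with Benjamini-Hochberg adjustment over 12691 genes and no covariate. The code was tested on simulated data. SEs are those of the difference in mean log2 CPM (prior count 2), and intervals at 95% follow from the F statistic. Ratios of summed counts carry exact intervals for counting error only. Bounds above the floor divide the mean Sox4 CPM by the mean CPM of 3 counts in EV libraries and carry no interval. By library, 3 counts equal 0.150 to 0.231 CPM. The p-values rest on the spread among the 3 animals of each group, moderated for each gene toward a trend over all genes tested. Replicate libraries differed by more than counting error (chi-square per degree of freedom 17.6 to 62.7).

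The 10 genes and the lists were chosen with earlier results of these data known. Named genes were all 10, every EGR, IER, DUSP, Sprouty and Spred relative and, from each other pathway list, up to 4 genes past the threshold with the largest change and a mean count of at least 50, plus the 3 genes nearest in pattern to Egr1, Dusp6 and Spry2. Genes outside this rule named as markers came from the marker lists. Reln, Ly6g, Ptprc, Lrig1, Etv4, Etv5, Phlda1, Plaur and Nr4a2 were named after their values were seen. The same holds for Dcn, Lrat, Col1a1, Pdgfra, Pdgfrb and Des. Some genes that the rule picks are not reported here. Alternatives were totals alone, DESeq2 1.42.0 size factors and Wald test, no filter, a mean count of at least 50, a replicate block and leaving out each library. Exon lengths and overlaps came from GENCODE M21 (GRCm38), while the counts are on GRCm39, and promoters from RefSeq (GRCm38.p6).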

Additional observations from a re-analysis of the deposited data

How the results depend on the processing

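The genes past the threshold numbered 6 of 9 and ran from 5 to 6 when each library was left out in turn, with 4 to 5 of them at least 2-fold higher. With totals alone 8 passed and 7 were at least 2-fold higher, which follows from a scaling that moves the median of all genes to 0.51. With DESeq2's Wald test 7 passed. Dusp4 and Dusp6 passed in all 12 alternatives, Egr1 in 9, Spry4 in 8, Ier5 in 4, Ier2 in 1 and Dusp1 in none. Ier3 and Dusp5 also passed in all 12, but they met the filter only through their Sox4 counts. Their passing is therefore a description and not a measure of robustness. Dusp1, Nab1 and Nab2 changed sign, and the cause was not tested: leaving out libraries moved the log2 fold change of Dusp1 from -0.14 to 0.26, of Nab1 from -0.18 to 0.011 and of Nab2 from -0.53 to 0.10, and with totals alone Nab1 was at 0.36 and Nab2 at 0.26. Without EV 1, Nab2 was at 0.10.

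With a replicate block 6 genes passed, Egr1 no longer did (0.85) and Ier5 did (0.98). Deviations of same-numbered libraries correlated at 0.27, -0.09 and 0.13, which does not pair the animals beyond a shared number, and of the Sox4 libraries, 1 and 3 correlated best with the EV library of their own number. Among the other named genes, 8 changes lost and 9 gained the threshold over all alternatives. Depth limits Spry2, with at most 7 counts in a library, and the EV levels of Ier3 and Dusp5.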

Other observations

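Genes outside the 10 whose pattern over the 6 libraries was most like that of 3 of them were found among 9016 tested genes whose mean count reached 100, by the root mean square difference of log2 CPM after centring each gene on its mean. Among the nearest to Egr1 were Tcim (0.0756) and Pawr (0.166), with log2 fold changes of 0.87 and 0.99. The nearest to Dusp6 were Ripk4 (0.0609), C2cd3 (0.104) and Kdm5b (0.112), with log2 fold changes of 1.79, 1.80 and 1.80. The nearest to Spry2 were Cpne2 (0.157), Cks1b (0.158) and Tgif1 (0.165), but the pattern of Spry2 rests on at most 7 counts in a library. Likeness over 6 libraries in 2 groups is set mostly by the difference between the groups.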
